A study of Mus musculus with 12 samples.

Results

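The smooth muscle and myofibroblast contractile genes Acta2, Tagln, Myh11, Cnn1, Smtn, Lmod1, Myocd and Actg2 were followed in the left ventricles of mice after pressure overload. They were chosen by name, by matching the NCBI Gene identifiers of the deposited table to gene symbols, and they are 8 of the 18079 genes listed. All 8 passed the filter on low values (3 or more libraries with at least 1 FPKM), which kept 11664 genes for testing. FPKM is a level that divides the reads of a gene by the length of its transcript and the size of the library. Male mice (C57BL/6 in the labels, C57BL/6J in the methods of the study) received either hispidulin, a plant flavone, or its vehicle DMSO, and underwent either aortic banding (AB), which narrows the aorta and raises the load on the left ventricle, or a sham operation. Hispidulin was injected into the peritoneum at 20 mg/kg/day from 1 day ahead of surgery until the hearts were taken 4 weeks after it, at 12 weeks of age by the labels (the methods of the study give a range of ages at surgery that starts at that of the labels). The sham groups DMSO+Sham and Hispidulin+Sham and the banded groups DMSO+AB and Hispidulin+AB held 3 mice each, and each mouse gave 1 library of polyadenylated RNA from left ventricular muscle. The question was whether these genes moved with banding or hispidulin, and whether Acta2 followed the genes of vessel smooth muscle.

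Smooth muscle cells wrap the arteries and arterioles of the heart and contract through their own forms of actin and myosin. Pericytes, which sit on capillaries, share part of this set, and fibroblasts that become myofibroblasts in an injured heart take up Acta2. Most of these genes are switched on by serum response factor bound to a DNA element named the CArG box, with myocardin, the product of Myocd, as its partner. In whole tissue, fewer cells of a type and less RNA per cell cannot be told apart.

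Acta2 encodes smooth muscle alpha-actin and belongs to a family of near-identical actins, among which Actc1, the cardiac muscle actin, was listed at 2741 to 11562 FPKM in these hearts. The stretch of the Acta2 coding sequence that is most alike in Actc1 (bases 748 to 807) is shown because reads of 50 bases had to tell these genes apart. It lies in exon 7 of Acta2 at chr19:34244913-34244972, exon 7 of Actg2 at chr6:83519769-83519828, exon 5 of Actc1 at chr2:114049170-114049229 and exon 5 of Acta1 at chr8:123892545-123892604, all on the minus strand of GRCm38, in the GENCODE annotation. Capitals mark bases that differ from Acta2.
Acta2: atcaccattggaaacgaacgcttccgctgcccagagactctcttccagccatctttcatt
Actg2: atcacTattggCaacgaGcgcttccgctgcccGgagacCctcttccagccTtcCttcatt
Actc1: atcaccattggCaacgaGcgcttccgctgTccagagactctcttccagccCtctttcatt
Acta1: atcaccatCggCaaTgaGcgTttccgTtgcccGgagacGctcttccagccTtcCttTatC
Even here Actc1 differed from Acta2 at 4 of 60 bases, Actg2 at 7 and Acta1 at 12. Over the whole coding sequence Acta2 was 82.6% identical to Actc1, 84.2% to Actg2 and 85.4% to Acta1. No window of 50 bases of it matched Actc1 or Actg2 with up to 2 mismatches, whereas 8 of 1082 windows (0.739%) matched Acta1, 13 (1.2%) Actb and 28 (2.59%) Actg1 in this way. Of the whole Acta2 transcript, 7 of 1986 windows (0.352%) occurred without a mismatch in the transcript of another gene, among them Actg1 and its pseudogene Actg-ps1. For Myh11 this share was 0.406%, with Myh9 and Myh10.

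The mean Spearman correlation across genes of a library with the others of its group was 0.952 to 0.988, and the lowest was that of mouse 3 of DMSO+Sham. Cardiomyocyte markers were high in every library of this labelled heart muscle, with Myl2 at 11178 to 16920 FPKM, while the skeletal myosins Myh1, Myh2 and Myh4 stayed at or under 0.03 FPKM. Atrial markers differed between libraries, and their summed FPKM was 773.9 in mouse 3 of Hispidulin+Sham, 172 in mouse 2 of DMSO+AB, 91.0 in mouse 3 of Hispidulin+AB and 2.53 to 40.0 elsewhere. The animal numbers of the labels fall into a series beginning with 67 (6 mice), a series beginning with 52 (5 mice) and a single mouse, mouse 1 of DMSO+Sham; whether these series were handled together is not stated.

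Acta2 was the most abundant of the 8 genes on average, with a spread that 1 mouse carried. Over the 12 mice its level was 72.9 ± 60.4 FPKM (SD, n = 12), ahead of Smtn at 35.0 ± 7.0, Tagln at 23.1 ± 6.02, Myocd at 8.39 ± 2.01, Myh11 at 6.47 ± 1.31, Cnn1 at 2.63 ± 1.30, Lmod1 at 1.48 ± 0.347 and Actg2 at 0.771 ± 0.485. Within a mouse, Acta2 was above Smtn in 10 of 12 mice, Smtn above Tagln in 11, Tagln above Myocd in 12, Myocd above Myh11 in 8, Myh11 above Cnn1 in 12, Cnn1 above Lmod1 in 9 and Lmod1 above Actg2 in 10. The coefficient of variation of Acta2 was 82.9%, against a median of 15.8% over all tested genes, and 171 genes (1.47%) varied more. Without mouse 1 of Hispidulin+Sham it was 35.4%, which 10.5% of tested genes exceeded. Those of Actg2 and Cnn1 were 62.9% and 49.3% (66.3% and 50.4% without that mouse), and those of the other 5 lay between 20.0% and 26.1%.

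**Figure D1:**
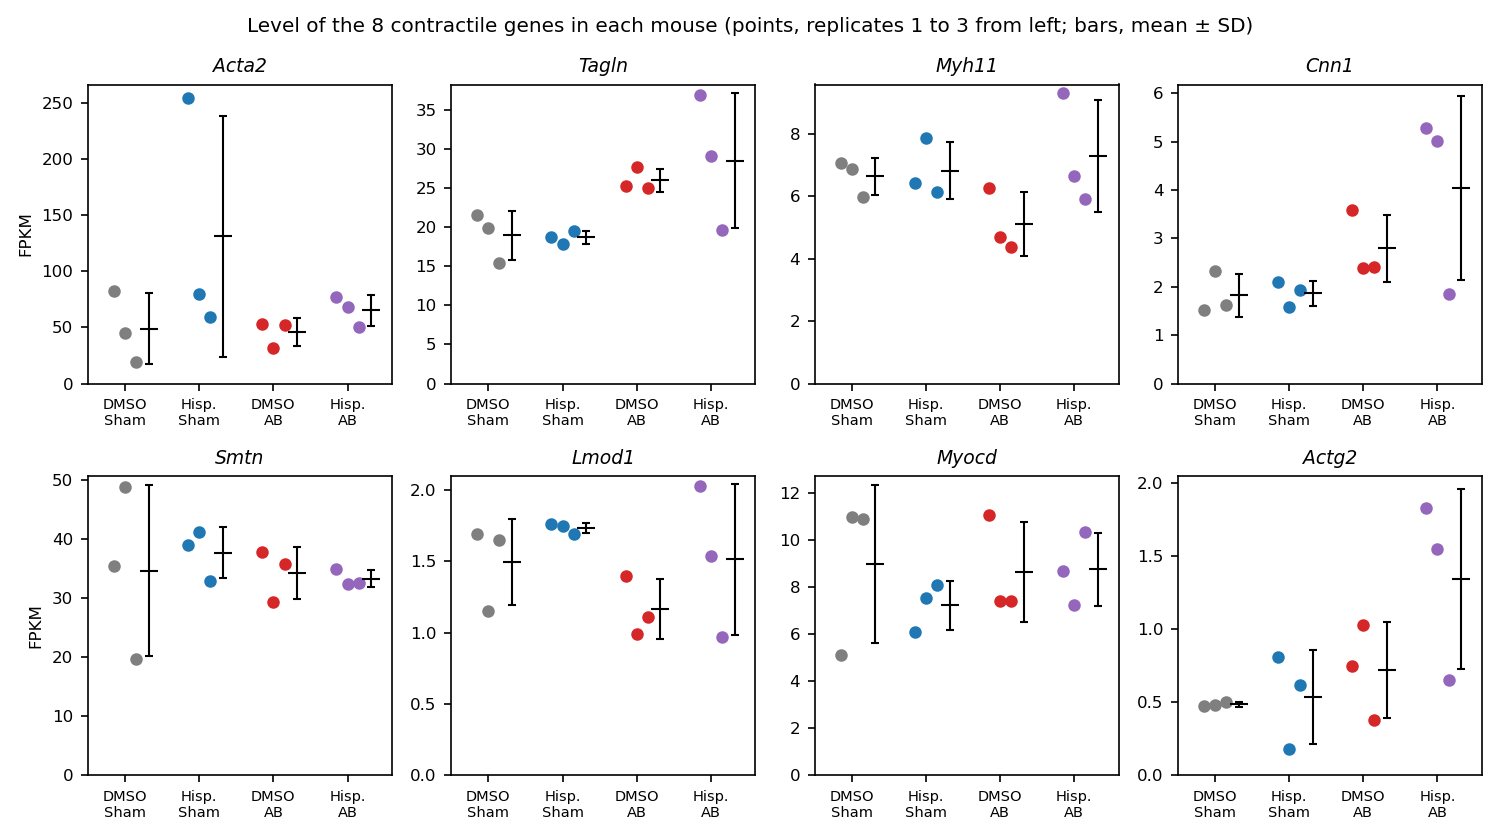
Level (FPKM) of each of the 8 contractile genes in each mouse, by group, with points for mice and bars for the mean ± SD (n = 3). The Acta2 panel is stretched by 1 Hispidulin+Sham mouse at 254.95 FPKM, and Tagln in the 3 DMSO+AB mice (25.09 to 27.76 FPKM) lies above all 6 sham mice.

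Among the filament genes, Acta2 was listed at 82.52, 44.79 and 19.35 FPKM in the DMSO+Sham mice, and at 53.35, 32.00 and 52.50 FPKM in the DMSO+AB mice. It stood at 254.95, 79.66 and 59.76 FPKM in the Hispidulin+Sham mice, and at 76.99, 68.45 and 50.21 FPKM in the Hispidulin+AB mice. The groups, in the order of their means, were Hispidulin+Sham (131 ± 107, SD, n = 3), Hispidulin+AB (65.2 ± 13.7), DMSO+Sham (48.9 ± 31.8) and DMSO+AB (46.0 ± 12.1), and every pair of neighbours in this order overlapped. The highest and lowest mice of all 12 were both shams, 13.2-fold apart. The lowest, mouse 3 of DMSO+Sham, also held the lowest Smtn, Tagln and Actc1 (2741 FPKM, against at least 7909 in the other mice). It had the highest summed macrophage markers as well (463 against 223 to 447). Some of the results that rest on this mouse are given without it, but correlations within the shams or within its series of animal numbers are not. The highest, mouse 1 of Hispidulin+Sham, had the lowest summed atrial markers (2.53).

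Myh11, the myosin heavy chain of smooth muscle and the gene most particular to that cell, was listed at 7.08, 6.88 and 5.97 FPKM in DMSO+Sham and at 6.28, 4.69 and 4.38 FPKM in DMSO+AB. In Hispidulin+Sham it was at 6.44, 7.88 and 6.15 FPKM, and in Hispidulin+AB at 9.32, 6.66 and 5.90 FPKM. The 2 lowest of the 12 mice were DMSO+AB mice, and the first mouse of that group lay within the ranges of both DMSO+Sham and Hispidulin+AB. Actg2, the gamma-actin of gut and other visceral smooth muscle, was near the limit of the table, at 0.47, 0.48 and 0.50 FPKM in DMSO+Sham and at 0.81, 0.18 and 0.62 FPKM in Hispidulin+Sham. It reached 0.75, 1.03 and 0.38 FPKM in DMSO+AB and 1.83, 1.55 and 0.65 FPKM in Hispidulin+AB. Because 1 FPKM was reached only in 3 libraries, all of them from banded mice, Actg2 entered the tests through the AB groups, and its direction is given as a value only.

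Among the proteins that bind these filaments, Tagln (transgelin, or SM22 alpha, an actin-bundling protein) was listed at 21.60, 19.91 and 15.47 FPKM in DMSO+Sham and at 18.82, 17.87 and 19.49 FPKM in Hispidulin+Sham. After banding it was at 25.26, 27.76 and 25.09 FPKM with DMSO and at 36.92, 29.13 and 19.63 FPKM with hispidulin. The DMSO+AB levels lay above those of all sham mice, whereas the third Hispidulin+AB mouse was among the shams. Cnn1, calponin, which binds actin and slows the myosin motor, was at 1.51, 2.33 and 1.62 FPKM in DMSO+Sham and at 2.09, 1.58 and 1.93 FPKM in Hispidulin+Sham. Its levels were 3.59, 2.38 and 2.41 FPKM in DMSO+AB, and 5.28, 5.01 and 1.86 FPKM in Hispidulin+AB. The third Hispidulin+AB mouse held the lowest Tagln, Cnn1 and Actg2 of its group, and the first mouse of that group was highest of all 12 in each of them.

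Smtn (smoothelin, a cytoskeletal protein of contractile smooth muscle that has relatives in striated muscle) ranged from 19.73 to 48.83 FPKM, and both ends were DMSO+Sham mice. Lmod1, a leiomodin that nucleates actin filaments in smooth muscle, ranged from 0.97 to 2.03 FPKM, with means of 1.497 ± 0.301 and 1.73 ± 0.0379 FPKM in DMSO+Sham and Hispidulin+Sham and of 1.17 ± 0.211 and 1.51 ± 0.531 FPKM in DMSO+AB and Hispidulin+AB (SD, n = 3). Myocd, the coactivator, which is also made in cardiomyocytes, ranged from 5.09 to 11.06 FPKM. For Smtn and Myocd the means of the 4 groups lay within 33.3 to 37.7 and within 7.22 to 8.98 FPKM, and every group overlapped every other.

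Banding was examined first in vehicle-treated mice, DMSO+AB against DMSO+Sham. None of the 8 genes passed an adjusted p of 0.05 (limma on log2(FPKM + 1), Benjamini-Hochberg over all tested genes), where 608 of 11664 genes (5.21%) did, 2.5% higher and 2.71% lower. The log2 fold change of Acta2 was 0.10 (SE 0.54, 95% interval -1.07 to 1.27, adjusted p = 0.937 by limma), so that its interval included changes of more than 1 on the log2 scale in both directions. Its sign rested on single libraries, with -0.43 without mouse 3 of DMSO+Sham, -0.023 and -0.012 without mouse 1 or mouse 3 of DMSO+AB, and 0.58 without mouse 1 of DMSO+Sham. With weights for library quality it was -0.72. Tagln differed by 0.45 (SE 0.19, interval 0.04 to 0.86, adjusted p = 0.203), Cnn1 by 0.42 (SE 0.26, adjusted p = 0.394), Myh11 by -0.33 (SE 0.17, adjusted p = 0.288) and Lmod1 by -0.20 (SE 0.16, adjusted p = 0.519), all by limma. Tagln alone had an unadjusted p under 0.05 (0.0346, limma), as did 20.4% of all tested genes. The DMSO+AB and DMSO+Sham mice did not overlap for Tagln and Cnn1, both higher after banding, and 7.18% of all tested genes were apart in that direction. The differences of Smtn (0.07), Myocd (-0.01) and Actg2 (0.20) were all smaller than their standard errors of 0.24, 0.25 and 0.22. Leaving aside Actg2, 4 of 7 log2 fold changes were above 0 with a median of 0.07, beside 44.2% of all tested genes and a median of -0.03.

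**Figure D2:**
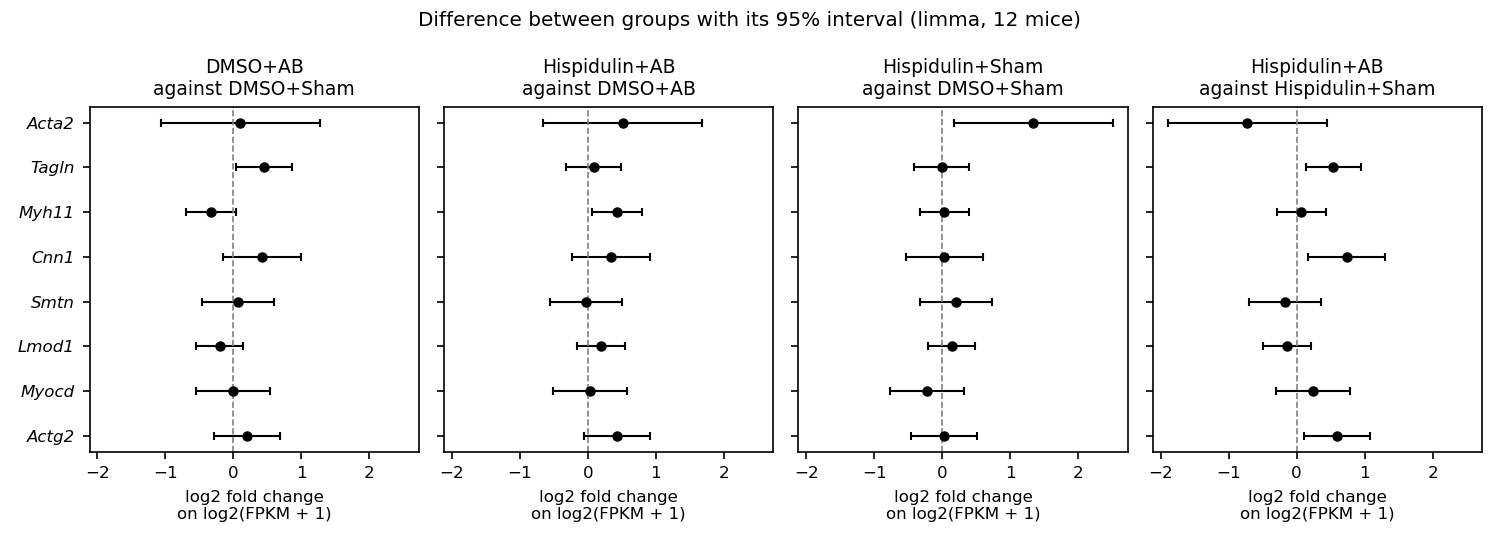
Difference between groups for each gene as a log2 fold change on log2(FPKM + 1), with points for the estimate and bars for the 95% interval (limma, 12 mice), in 4 comparisons. The widest intervals are those of Acta2, and the DMSO+AB against DMSO+Sham panel has Tagln (0.45) and Myh11 (-0.33) on opposite sides of 0.

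Hispidulin was compared with DMSO in banded mice. Again 0 of 8 genes passed, as did 0 of 11664 genes (0%), of which 362 (3.1%) had an unadjusted p under 0.05. The log2 fold change of Acta2 was 0.51 (SE 0.54, interval -0.66 to 1.68, adjusted p = 0.996 by limma), with the mice of both groups overlapping. Myh11 was the only gene of the 8 with an unadjusted p under 0.05 (log2 fold change 0.43, SE 0.17, interval 0.07 to 0.79, adjusted p = 0.996 by limma), and it was 0.26 without mouse 1 of Hispidulin+AB. Differences of 0.34 (SE 0.26) in Cnn1, 0.20 (SE 0.16) in Lmod1 and 0.09 (SE 0.19) in Tagln had adjusted p-values of 0.996 by limma as well, and the value of Actg2 was 0.43 (SE 0.22). Smtn (-0.03) and Myocd (0.03) were close to 0. With 1 library left out, Acta2 ran from 0.27 (without mouse 2 of DMSO+AB) to 0.68, and without mouse 1 or mouse 3 of Hispidulin+AB Cnn1 was 0.14 or 0.71, Lmod1 0.05 or 0.36 and Actg2 0.27 or 0.66. Leaving aside Actg2, 6 of 7 log2 fold changes were above 0 with a median of 0.20, beside 51.4% of all tested genes and a median of 0.00.

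The sign of these differences was not the same in both series of animal numbers. In the series beginning with 67 (2 Hispidulin+AB and 2 DMSO+AB mice) the log2 difference was 0.80 for Acta2, 0.30 for Tagln, 0.47 for Myh11, 0.64 for Cnn1, 0.34 for Lmod1 and 0.51 for Actg2. In the series beginning with 52, with 1 mouse against 1, it was -0.06, -0.34, 0.36, -0.25, -0.10 and 0.26 in the same order. Smtn differed by 0.02 and -0.14 and Myocd by -0.17 and 0.43 in the 67 and 52 series. Myh11 was thus higher with hispidulin in both series, and Acta2, Tagln, Cnn1, Smtn and Lmod1 in the 67 series alone.

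In sham mice hispidulin was compared with DMSO in the same way, and 0 of 8 and 0 of 11664 genes (0%) passed, with 287 (2.46%) at an unadjusted p under 0.05. Acta2 was among the latter, with a log2 fold change of 1.34 (SE 0.54, interval 0.17 to 2.51, adjusted p = 1.00 by limma), and the 2 groups overlapped. This difference was 0.71 without mouse 1 of Hispidulin+Sham, 0.80 without mouse 3 of DMSO+Sham and 0.69 with weights for library quality. It was 1.65 and 1.58 within the 52 and 67 series, each with 1 DMSO+Sham mouse (mouse 3 in the latter) and without mouse 1 of DMSO+Sham, the highest of its group. The 52 series holds mouse 1 of Hispidulin+Sham, and without it the difference there was 0.82, with 1 mouse against 1, a value added after seeing the data. The other 7 genes differed by between -0.22 (Myocd) and 0.20 (Smtn), each by less than its standard error. The effect of hispidulin in banded mice minus that in sham mice, the interaction, was -0.83 for Acta2 (SE 0.76, interval -2.48 to 0.83, adjusted p = 1.00 by limma) and 0.40 for Myh11 (SE 0.24). With 1 library left out these ran from -1.31 (without mouse 1 of DMSO+Sham) to -0.20 (without mouse 1 of Hispidulin+Sham), and from 0.23 (without mouse 1 of Hispidulin+AB) to 0.53 (without mouse 1 of DMSO+AB). With weights for library quality the interaction of Acta2 turned sign, to 0.024. None of the 8 genes passed this test, and neither did any other (0%, with 2.48% at an unadjusted p under 0.05).

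Banding was also examined under hispidulin, Hispidulin+AB against Hispidulin+Sham, a comparison that shares its banded mice with that of hispidulin against DMSO after banding. Here 0 of 8 and 0 of 11664 genes (0%) passed, and with the replicate number as a block 17 genes did, none of them among the 8. At an unadjusted p under 0.05 stood Tagln (log2 fold change 0.54, SE 0.19, adjusted p = 0.544) and Cnn1 (0.74, SE 0.26, adjusted p = 0.581), both by limma, beside 847 of all tested genes (7.26%). Only Tagln had groups that did not overlap, as did 9.14% of all tested genes in that direction. Without mouse 1 of Hispidulin+AB these differences were 0.34 and 0.54, and without mouse 3 they were 0.78 and 1.10. Actg2, which was tested only because banded libraries reached 1 FPKM, differed by 0.59 (SE 0.22), a value from which no call is drawn. The 1 FPKM added ahead of the logarithm understates differences of low genes, and with 0.1 added that of Actg2 was 1.23. Acta2 had the opposite sign (-0.73, SE 0.54, adjusted p = 0.861 by limma), which was -0.10 without mouse 1 of Hispidulin+Sham. Myh11 (0.07, SE 0.17), Smtn (-0.17, SE 0.24), Lmod1 (-0.14, SE 0.16) and Myocd (0.24, SE 0.25) differed by less than their standard errors.

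To ask whether Acta2 followed the vessel genes, its log2(FPKM + 1) was correlated with that of the other members and with list means over the 12 mice. This gave 12 relations, of which 0 passed an adjusted p of 0.05 by a two-sided permutation test with 100000 resamples, for Pearson's r or for Spearman's rho. With Myh11 the Pearson r was 0.38 and the Spearman rho 0.64 (permutation p = 0.221 and 0.0288, adjusted p = 0.433 for r), and r was 0.45 without the 2 mice farthest from the median of Myh11. With Lmod1 r was 0.45 and rho 0.74 (permutation p = 0.149 and 0.00725, adjusted p = 0.358 for r), and r was 0.35 without the 2 farthest mice. Smtn had the highest r of the members at 0.58, with a rho of 0.45 (permutation p = 0.0677 and 0.147, adjusted p = 0.271 for r), which was 0.63 without the 2 farthest mice but 0.25 without mouse 3 of DMSO+Sham. Over all 12 mice r was 0.08 with Tagln and 0.10 with Cnn1 (rho 0.02 and -0.08, adjusted permutation p = 0.873 for each r). Actg2, 1 of the 12 relations, is given by its values only, an r of 0.13 and a rho of 0.03. Mouse 1 of Hispidulin+Sham and mouse 3 of DMSO+Sham were the highest and lowest in Acta2. Without both together (chosen after seeing the data) r was 0.72 with Myh11, 0.85 with Lmod1, 0.17 with Smtn, 0.09 with Cnn1 and 0.00067 with Tagln. For deviations from the group means r was 0.42 with Tagln, 0.28 with Cnn1, 0.29 with Myh11, 0.25 with Lmod1, 0.58 with Smtn, -0.59 with Myocd and 0.23 with Actg2. In the 6 AB mice r was 0.45 with Tagln, 0.75 with Cnn1, 0.78 with Myh11, 0.83 with Lmod1 and 0.56 with Smtn. In the 6 shams it was 0.49, 0.21, 0.29, 0.36 and 0.57 in the same order. The shams include mouse 3 of DMSO+Sham, the lowest of all 12 in Acta2, Tagln and Smtn, and are not given without it. None of these subsets gave an adjusted p under 0.05 by an exact permutation test. Differences between the correlations of the members were not tested.

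Myocd was the only member with a negative r, at -0.61 with a rho of -0.60 (permutation p = 0.0327 and 0.0435, adjusted p = 0.196 for r), and r was -0.69 without the 2 mice farthest from its median. It was -0.76 in the 6 sham mice and 0.10 in the 6 AB mice. For the mean of Tagln, Myh11, Cnn1, Smtn and Lmod1, given as a description, r with Acta2 was 0.42 and rho 0.55 over 12 mice, 0.64 without mouse 1 of Hispidulin+Sham and 0.19 without mouse 3 of DMSO+Sham. It was 0.50 for deviations from the group means and 0.18 without the 2 mice farthest from the median of this mean. Without the mice highest and lowest in Acta2 together it was 0.46. Within the 6 mice of the 67 series it was 0.87, within the 6 shams 0.68 and within the 6 AB mice 0.80. The shams and the 67 series both hold mouse 3 of DMSO+Sham, and the AB mice pool both treatments. With the mean of the 22 machinery genes, whose levels separated shams from AB mice, r was 0.26 in the shams and 0.23 in the AB mice. That list is not limited to vessel smooth muscle. It holds Tpm1 at 7158 to 10263 FPKM and Des at 899 to 1937 FPKM, beside 4.38 to 9.32 FPKM for Myh11. Inside the 67 series the members gave r of 0.70 (Tagln), 0.63 (Myh11), 0.77 (Cnn1), 0.88 (Smtn), 0.41 (Lmod1), -0.40 (Myocd) and 0.66 (Actg2). This series holds the mouse lowest in Acta2.

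The ratio of Acta2 to Tagln within a mouse ranged from 1.15 to 13.5 with a median of 2.30, and that of Acta2 to Myh11 from 3.24 to 39.6 with a median of 9.11. Mouse 1 of Hispidulin+Sham held the highest value of both ratios. Its Acta2 was 4.51-fold the median of the 12 mice, whereas its Tagln was 0.907-fold the median. In this mouse, then, Acta2 stood apart from the other contractile genes, and in the lowest mouse of Acta2 (0.342-fold the median) Smtn was 0.560-fold, Cnn1 0.733-fold and Tagln 0.745-fold the median. Myh11 was 0.939-fold, Lmod1 1.03-fold and Myocd 1.4-fold the median in that mouse.

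**Figure D3:**
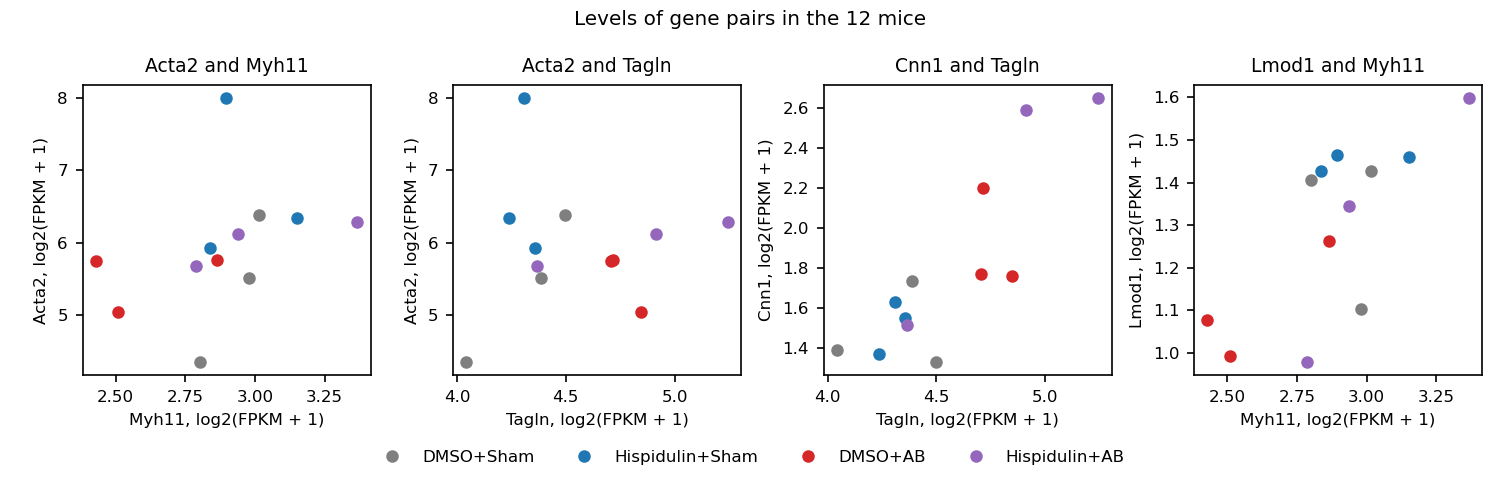
Levels of 4 gene pairs in the 12 mice, both axes log2(FPKM + 1), 1 point per mouse coloured by group. In both Acta2 panels a Hispidulin+Sham mouse sits far above the rest, and the points of Cnn1 and Tagln climb together (r 0.85).

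Other cell types were set beside Acta2 in the same family of 12. Its r was 0.74 with the mean of 8 cardiomyocyte markers (rho 0.62, permutation p = 0.0122 and 0.0373, adjusted p = 0.146 for r). This r was 0.43 without the 2 farthest mice and 0.58 without mouse 3 of DMSO+Sham. It was 0.96 in the 67 series, which holds that mouse. With pericyte markers r was 0.45 (rho 0.22, adjusted permutation p = 0.358) and 0.10 without mouse 3 of DMSO+Sham, with resting fibroblast markers -0.10 (rho -0.39, adjusted permutation p = 0.873) and with endothelial markers -0.03 (rho -0.22, adjusted permutation p = 0.937). With the mean of 3 atrial markers r was -0.36 (rho -0.52, adjusted permutation p = 0.433 for r), -0.52 for deviations from the group means and -0.68 in the 6 AB mice. Over all tested genes the 5 with the highest r to Acta2 were Ndufb10 (0.88), Tcap (0.87), Ppargc1b (0.85), Cmtm5 (0.84) and Bcam (0.83), given as a measure of likeness over 12 mice. Ndufb10 encodes a subunit of mitochondrial complex I and Tcap a sarcomere protein of the Z-disc. Among the 11663 other tested genes Smtn ranked 301, Lmod1 862, Myh11 1260, Cnn1 3495 and Tagln 3672 by r with Acta2. The 5 genes most like Myh11 were Coq7 (0.87), Efnb3 (0.86), Vsig2, Gpr35 and Epb41l4b (0.85 each), and Lmod1 ranked 35.

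**Figure D4:**
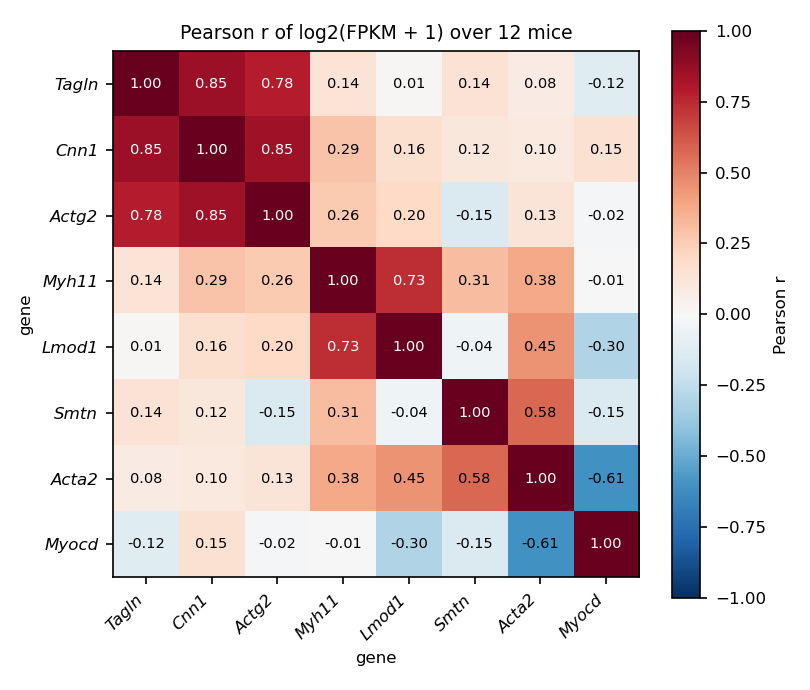
Pearson r of log2(FPKM + 1) between the 8 genes over 12 mice, as colour and number. Tagln, Cnn1 and Actg2 form one block (0.78 to 0.85), Myh11 and Lmod1 another (0.73), and Acta2 is most like Smtn (0.58).

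Among the other 21 pairs of members, examined after their values were seen, Tagln with Cnn1 (r 0.85, rho 0.80, adjusted permutation p = 0.0063) and Myh11 with Lmod1 (r 0.73, rho 0.73, adjusted permutation p = 0.0241) passed an adjusted p of 0.05 by Pearson's r, and no pair passed by Spearman's rho. Actg2 entered through banded libraries, and its r of 0.85 with Cnn1 (rho 0.67) and 0.78 with Tagln (rho 0.59) are given as descriptions only. Without the 2 Hispidulin+AB mice with the highest levels, r was 0.67 for Tagln with Cnn1, 0.47 for Cnn1 with Actg2 and 0.44 for Tagln with Actg2, so the relations of Actg2 rested largely on those 2 mice. In the 6 mice of the 67 series, which hold both, the 3 values were 0.88, 0.89 and 0.92. In the 6 AB mice they were 0.82, 0.82 and 0.79, and in the 6 shams 0.21, 0.52 and 0.14. Myh11 with Lmod1 gave 0.60 without the 2 farthest mice, 0.88 in the 67 series, 0.88 in the 6 AB mice and -0.03 in the 6 shams. Of all 11663 genes Cnn1 ranked 1 by r with Tagln, and Tagln ranked 1 with Cnn1.

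The rest of the contractile apparatus was read from fixed lists for DMSO+AB against DMSO+Sham, where 2.5% of all tested genes rose and 2.71% fell. Of 22 tested genes of the contraction machinery and its kinases and phosphatases, 1 rose and 0 fell, close to the share over all genes, with a median log2 fold change of 0.17, and over the alternatives 0 to 5 genes passed. The gene was Des, encoding the intermediate filament desmin of all muscle types (0.59, SE 0.15, adjusted p = 0.0451 by limma), while Tagln2 (0.74, adjusted p = 0.0593), Tpm2 (0.71, adjusted p = 0.0593) and Myl6 (0.50, adjusted p = 0.0681) did not pass by limma. Of 19 serum response factor cofactors and other regulators, Myocd among them, 2 rose and 0 fell (median 0.16, over the alternatives 1 to 3 passed). These were Fhl1 (1.72, SE 0.25, adjusted p = 0.00613 by limma) and Csrp2 (1.37, SE 0.26, adjusted p = 0.016 by limma), both LIM domain proteins. Fhl1 is also made in cardiomyocytes. Of 12 pericyte markers 1 rose (Higd1b, 0.51, SE 0.13, adjusted p = 0.0426 by limma) with a median of 0.01 (over the alternatives 0 to 3 passed), beside Abcc9 at -0.79 (adjusted p = 0.0548) and Cspg4 at 0.57 (adjusted p = 0.062). Higd1b did not pass with the replicate block. Of 8 endothelial markers 0 passed with a median of 0.03.

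Activated fibroblasts and myofibroblasts are the other cells known for Acta2. Of 14 of their markers tested, Ltbp2 and Tnc reached 1 FPKM in banded mice alone, and of the other 12, 9 rose and 0 fell (median 1.84, over the alternatives 0 to 12 of all 14 passed), among them Cilp (3.43, SE 0.72, adjusted p = 0.0224), Thbs4 (3.41, SE 0.73, adjusted p = 0.0247), the matricellular protein Postn (3.08, SE 0.62, adjusted p = 0.0197) and Col8a1 (2.61, SE 0.37, adjusted p = 0.00496), all by limma. Mouse 1 of DMSO+AB stood apart from the other two of its group, with 6.79 against 84.09 and 76.22 FPKM for Cilp and 4.42 against 74.73 and 61.66 FPKM for Thbs4, near the Hispidulin+AB mice (6.80 to 18.88 and 5.19 to 8.58 FPKM). The mean log2 level of the activated fibroblast markers was taken over all 14, Ltbp2 and Tnc included. Its separation of AB mice from shams is therefore a description only. Its lowest value in the 6 AB mice (2.97) was above the highest in the shams (2.47), so no pooled correlation with Acta2 is given. Within the 6 AB mice r between Acta2 and this mean was -0.83, and within the shams -0.21. Each subset pools DMSO with hispidulin mice, and differences between these groups were not taken out. Neither value was tested. Of 11 genes listed as resting fibroblast markers, collagens among them, 4 rose (median 1.05, over the alternatives 0 to 6 passed). They included Col1a1 (1.86, SE 0.46, adjusted p = 0.0407 by limma), while Col3a1 had 2.04 (adjusted p = 0.0665 by limma). The mean level went from 15.0 FPKM in DMSO+Sham to 57.8 in DMSO+AB for Col1a1. It went from 5.92 to 7.33 for Pdgfra and from 308 to 354 for Dcn, so the list did not move as 1 set. The 7 large vessel and elastic artery genes include Myh11 and Cnn1 of the 8 genes, and Lox, which is also an activated fibroblast marker here. Of these 7, the elastic fibre genes Eln (1.53), Mfap4 (2.82) and Mfap5 (2.44) rose (adjusted p = 0.0268, 0.0228 and 0.00674 by limma). Over the alternatives 0 to 4 of the 7 passed, with 0 when only the libraries compared were fitted. In Hispidulin+AB against DMSO+AB 0 genes of these lists passed, and the medians were -0.54 for activated fibroblasts, -0.45 for large vessel genes, -0.14 for resting fibroblasts, -0.04 for the machinery, -0.01 for pericytes and -0.01 for the regulators. They were 0.12 for endothelial markers and 0.15 for cardiomyocyte markers, beside 0.20 for the 7 genes other than Actg2. The DMSO+AB mouse that stood apart enters each of these medians. A difference between these lists and the 8 genes was not tested.

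**Figure D5:**
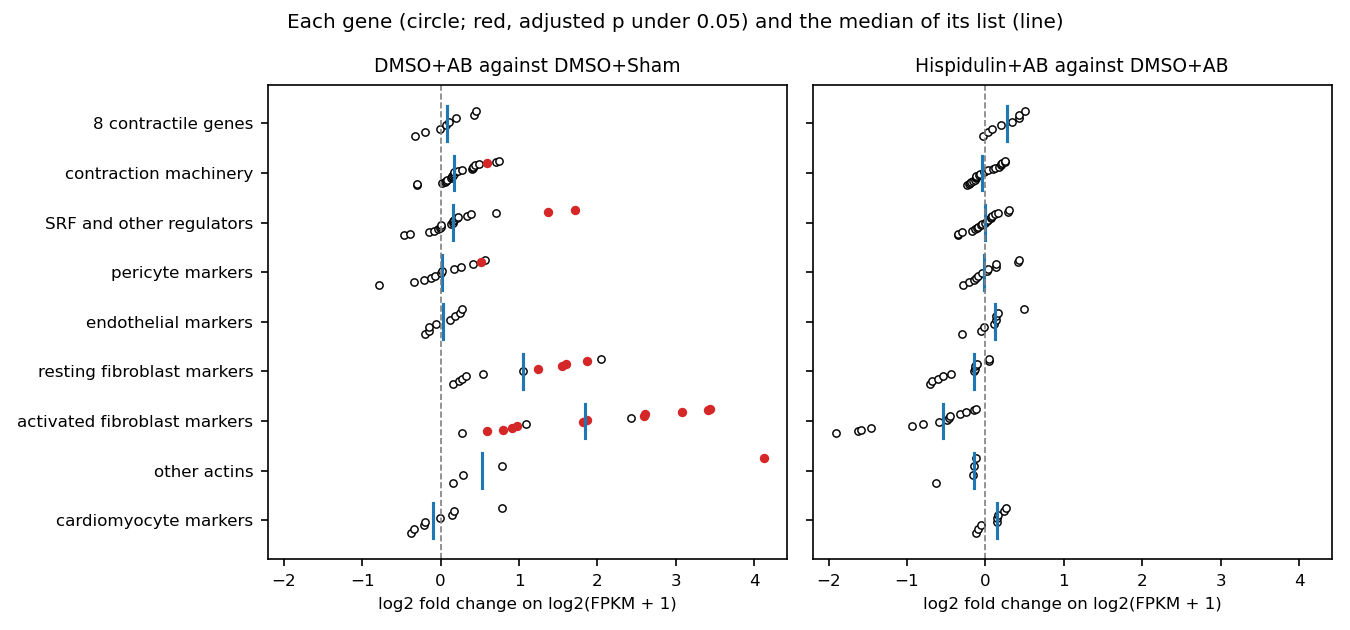
Log2 fold change on log2(FPKM + 1) of each gene (circle, red where the adjusted p was under 0.05) and the median of its list (line), after banding with DMSO (left) and for hispidulin in banded mice (right). The 8 contractile genes lie between -0.33 and 0.45 on the left, where the median of activated fibroblast markers is 1.84.

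Among the other actins, Acta1, the skeletal alpha-actin that cardiomyocytes of loaded hearts take up, was at 208 to 456 FPKM in the 6 shams and at 1893 to 8828 FPKM in the 6 AB mice, and it rose after banding with DMSO (4.12, SE 0.43, adjusted p = 0.0032 by limma). Actc1 (0.78, SE 0.35, adjusted p = 0.235 by limma), Actg1 (0.28) and Actb (0.16) did not pass. The difference of Actc1 is not given without mouse 3 of DMSO+Sham, which held 2740.68 FPKM against 7908.75 and 10200.5 in its group.

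The promoter of Acta2 is shown because serum response factor acts there. The 250 bases ahead of its start, at chr19:34255374-34255623 on the minus strand (GRCm38.p6, RefSeq), hold no CArG box in its strict form but 2 sequences with 1 of the 6 core letters changed to C or G (capitals), which begin 84 and 34 bases ahead of the start.
Acta2 promoter: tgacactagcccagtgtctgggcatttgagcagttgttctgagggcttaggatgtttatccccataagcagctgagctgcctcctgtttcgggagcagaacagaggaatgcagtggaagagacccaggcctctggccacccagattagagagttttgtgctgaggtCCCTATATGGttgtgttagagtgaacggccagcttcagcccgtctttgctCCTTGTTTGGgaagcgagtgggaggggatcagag
Searched on both strands, a box with up to 1 changed letter was found in 2823 of 32851 promoters of the same length (8.59%), at least 2 of them in 220 (0.670%), and the strict form in 482 (1.47%). The promoters of Cnn1, Smtn and Lmod1 held 0 matches, which says only that these letters are not in this window, and those of Tagln, Myh11, Myocd and Actg2 were not analysed here. A match describes the sequence, and no binding was measured.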

How the data were processed

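Left ventricular RNA of 12 mice was read as single-end 50-base reads on a BGISEQ-500, and the authors deposited FPKM rounded to 0.01. The submitters' processing notes name HISAT2 2.0.4, Bowtie2 2.2.5, RSEM 1.2.12 and DESeq2 1.4.5 without roles. Genome build, annotation and strand setting are not given in the sources used here, so reads of Tagln, Smtn, Myocd and Actg2 may be shared with genes that overlap them in RefSeq. Depth is unknown and no counting error can be given. Replicates are separate mice, and groups follow the labels.

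Symbols came from RefSeq (17947 of 18079 identifiers, 99.3%), and promoter sequences were at hand for 4 of 8 members. Log2(FPKM + 1) was fitted with limma 3.58.1 (R 4.3.3, 1 mean per group, eBayes with trend, two-sided, Benjamini-Hochberg). Permutation tests and sequence comparisons with GENCODE transcripts used Python 3.11.15. The fit was checked on simulated data. Members and lists were chosen with earlier results of these data known. Named genes were all members, some of the 4 per list with the largest change in DMSO+AB against DMSO+Sham, marker genes and other actins standing beside a member's result, and the 5 most like Acta2 and Myh11. The genes most like Smtn, Myocd and Lmod1 were named after their values were seen.

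Replicate numbers belong to different animals. Residuals of same-numbered mice correlated above 0.1 in every pair for Hispidulin+Sham against DMSO+Sham (0.126, 0.330 and 0.232) and Hispidulin+AB against Hispidulin+Sham (0.147, 0.197 and 0.228), but not for DMSO+AB against DMSO+Sham (-0.0239, -0.0443 and -0.198) or Hispidulin+AB against DMSO+AB (0.300, 0.176 and -0.183). The block was tried as an alternative, beside another value added (0.1), other filters, median-of-ratios scaling, library weights, the series of animal numbers as covariate, only the libraries compared, and each library left out.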

Additional observations from a re-analysis of the deposited data

How the results depend on the processing

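None of the 8 genes passed in the 4 comparisons of groups under any alternative, nor did Acta2 or Myh11, the only genes for which it was repeated, in the interaction (474 values, lowest adjusted p = 0.0694 by limma), and 435 of these values kept the direction. For the others the cause was not tested. The depth of the libraries is unknown, so what it limits could not be computed.

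The number of genes passing in DMSO+AB against DMSO+Sham (608) was 383 without a filter, 1423 with library weights, 142 with the series covariate, 11 with only the libraries compared, and 91 to 1053 with 1 library left out (91 without DMSO+Sham mouse 1, 1053 without DMSO+Sham mouse 2). In Hispidulin+AB against DMSO+AB (0) it was 2 without a filter and 0 to 20 with 1 library left out (20 without DMSO+AB mouse 1). In Hispidulin+AB against Hispidulin+Sham (0) it was 2 without a filter, 2 with median-of-ratios scaling, 209 with library weights, 49 with only the libraries compared and 0 to 3 with 1 library left out. The interaction gave 0 to 3 with 1 library left out, and Hispidulin+Sham against DMSO+Sham gave 0 throughout.

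With the replicate block the numbers were 640 in DMSO+AB against DMSO+Sham and 17 in Hispidulin+AB against Hispidulin+Sham. In DMSO+AB against DMSO+Sham the block gave 0 pericyte markers in place of 1, 2 machinery genes in place of 1 and 5 resting fibroblast markers in place of 4. It changed no call of the 8 genes and no count of the other lists there.

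The log2 fold changes that turned sign with library weights were, in DMSO+AB against DMSO+Sham, Acta2 (-0.72), Smtn (-0.10) and Myocd (0.40), in Hispidulin+AB against DMSO+AB, Smtn (0.044), in Hispidulin+Sham against DMSO+Sham, Myocd (0.21) and Actg2 (-0.027), and in the interaction Acta2 (0.024). With median-of-ratios scaling Myocd was 0.017 in DMSO+AB against DMSO+Sham and Tagln 0.00050 in Hispidulin+Sham against DMSO+Sham. With the series covariate Tagln was 0.11, and with 0.1 added Actg2 was -0.038, both in Hispidulin+Sham against DMSO+Sham.

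With 1 library left out, the ranges that crossed 0 were in DMSO+AB against DMSO+Sham Acta2 (-0.43 to 0.58), Smtn (-0.28 to 0.35) and Myocd (-0.33 to 0.16), in Hispidulin+AB against DMSO+AB Smtn (-0.14 to 0.038), Myocd (-0.086 to 0.20) and Tagln (-0.12 to 0.32), in Hispidulin+AB against Hispidulin+Sham Lmod1 (-0.29 to 0.022) and Myh11 (-0.10 to 0.19), and in Hispidulin+Sham against DMSO+Sham Tagln (-0.14 to 0.087), Actg2 (-0.10 to 0.21), Cnn1 (-0.047 to 0.16), Myh11 (-0.065 to 0.092) and Smtn (-0.15 to 0.49).

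For the correlation with Acta2, r turned without the 2 farthest mice for Tagln (-0.050, and -0.26 to 0.39 with 1 mouse left out), Cnn1 (-0.053, and -0.076 to 0.28) and endothelial markers (0.21, and -0.19 to 0.059). Endothelial r was 0.26 with median-of-ratios scaling, 0.66 in the 67 series, 0.03 in shams and 0.16 in AB mice, and resting fibroblast r was 0.38 in the series, 0.31 in shams and -0.61 to 0.088 with 1 mouse left out. Myocd was 0.10 in AB mice, and Actg2 was -0.00422 without mouse 1 of Hispidulin+Sham and mouse 3 of DMSO+Sham together, an alternative added after seeing the data, as were the sham and AB subsets. Cardiomyocyte markers gave 0.58 to 0.84 with 1 mouse left out and passed without DMSO+Sham mouse 2 (0.84, adjusted permutation p = 0.0269).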

Other observations

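The genes whose levels were most like those of Smtn, Myocd and Lmod1 are given with no test and were chosen after their values were seen. For Smtn they were Epb41l4a (r 0.98 over 12 mice) and Fsd2 (0.97), a protein of striated muscle. For Myocd they were Adamts9 (0.96), a secreted protease, and Fam168b (0.94). Lmod1 was most like Pla2g4b (0.88).

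In banded mice Rgs5, a G protein regulator of pericytes, had a log2 fold change of 0.41 (SE 0.17) and Vwf, the clotting factor of endothelial cells, one of 0.50 (SE 0.16) for hispidulin against DMSO, beside 0.43 for Myh11, and all 3 had an adjusted p of 0.996 by limma. They were chosen after their values were seen. Of their lists, 6 of 12 pericyte markers were above 0 (median -0.01) and 5 of 8 endothelial markers (median 0.12). Cnn1 and Lmod1 had an r of 0.95 in the 6 AB mice and -0.65 in the 6 shams (exact permutation p = 0.00139 and 0.139, adjusted over 21 pairs to 0.0292 in AB mice). This pair and these subsets were chosen after their values were seen, a choice that the adjustment does not cover. The permutation also shuffled DMSO and hispidulin mice together, so no call is drawn from it. Over all 12 mice r was 0.16 and rho -0.10. Without mice 1 and 2 of Hispidulin+AB, the highest in Cnn1, r was -0.41.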
